A study of Mus musculus with 12 samples.

Results

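The interferon-induced GTPases described here are 9 mouse genes, Iigp1, Tgtp2, Irgm1, Irgm2, Igtp, Gbp2, Gbp3, Gbp5 and Gbp7. They were chosen by gene symbol, each had 1 row of the 23077 in the table, and all 9 passed the filter on low values. The study followed fibroblasts from Hb9::GFP mouse embryos, in which GFP reports a motor neuron gene, during their direct conversion to induced motor neurons. Every group was infected with retrovirus carrying NIL, a single cassette for the motor neuron factors Ngn2, Isl1 and Lhx3, and was collected 4 days after infection. The group called NIL received nothing else. SDD cells were given, in addition, a SNAP-tagged p53DD, which acts as a dominant-negative form of the tumour suppressor p53. SDDIR cells received that tagged protein followed by an IRES and the activated oncogene HRAS G12V, and RISDD cells received the same parts in the other order, HRAS G12V before the IRES and the tagged p53DD after it. The sequence after an IRES is usually translated at a lower level than the one before it. Medium was changed 3 days after infection, and RepSox, an inhibitor of the TGF-beta type I receptor, was present from then on in all groups but NIL. The sort kept live single cells in NIL and SNAP-positive cells elsewhere, so SDD, SDDIR and RISDD each differed from NIL in a transgene, a drug and a sorting gate, which cannot be told apart. No group of uninfected cells was analysed here.

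Interferons are secreted proteins that cells release on sensing viral nucleic acid or other signs of infection. Type I interferons activate transcription factors that bind the interferon-stimulated response element (ISRE), and interferon gamma activates factors that bind the gamma-activated site (GAS). Among the genes that they induce in mouse cells are 2 families of GTPases, the immunity-related GTPases (IRGs) and the guanylate-binding proteins (GBPs), which coat the vacuoles of parasites such as Toxoplasma and of some bacteria and help to break them open. Fibroblasts are a cell type in which this response has long been studied.

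NIL, SDD and RISDD had 3 libraries each and SDDIR had 2, called A, B and C after the replicate letters in the labels. The heading of SDDIR B stood on 2 columns with identical values, which were counted once, and a further SDDIR sample in the labels was not analysed here. Libraries held 14872639 to 29815073 recovered reads, and values are normalised read counts, which are read counts that the authors had divided by a constant for each library. The NIL C library stood apart in its share of mitochondrial reads, at 0.537% against 2.60 to 4.04% in the other 10. It also had the fewest genes above 0, 15198 against 16607 to 17751. Among the delivered factors, its Neurog2 row was at 167282, against 59695 and 58398 in NIL A and B. Its Lhx3 row was at 258391, against 100451 and 102271. The Trp53 row, which can also count reads of the p53DD transgene, averaged 3201 ± 419 normalised counts (SD, n = 3) in NIL, against 37612 ± 4562 (SD, n = 3) in SDD, 33173 ± 5509 (SD, n = 2) in SDDIR and 44631 ± 1529 (SD, n = 3) in RISDD. The Hras row had means of 905, 922 and 1138 in SDD, SDDIR and RISDD, and since the sources used here do not say whether reads of the delivered HRAS fall on it, it does not check the labels. The 10 fibroblast markers, led by collagen genes, summed to 819191 to 1324168 in NIL and 632341 to 749593 in SDD, but only to 234905 to 268531 in SDDIR and 188264 to 204221 in RISDD. The 8 neuron markers summed to 2911 to 5494 in NIL, 7722 to 14376 in SDD, 6327 to 6395 in SDDIR and 14087 to 15429 in RISDD, and 4 of them rose in SDD against NIL. The list was split in RISDD, where 4 rose and 4 fell against SDD, and 6 rose and 2 fell against NIL. The part of the neuron and fibroblast markers in the GTPase levels was not tested.

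Stretches of 8 of the 9 promoters are shown as a description of genes already named for their induction by interferon. Whether the letters bear on the values across the libraries was not tested. The ISRE core, which is GAAA, any 2 bases and GAAA again on either strand, lies within the 250 bases upstream of the start of all 8. Promoters were taken from RefSeq on the GRCm38.p6 assembly, and Iigp1 was not among the entries. Each line gives 1 stretch, 5′ to 3′ along the gene's strand, with the ISRE core in capitals.
Irgm1, chr11:48871421-48871464, minus strand: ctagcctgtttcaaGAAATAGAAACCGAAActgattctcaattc
Irgm2, chr11:58214893-58214942, plus strand: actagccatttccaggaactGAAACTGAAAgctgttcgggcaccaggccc
Igtp, chr11:58199502-58199551, plus strand: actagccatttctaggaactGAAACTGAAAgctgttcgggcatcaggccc
Tgtp2, chr11:49064253-49064302, minus strand: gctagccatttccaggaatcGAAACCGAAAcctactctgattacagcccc
Gbp2, chr3:142620584-142620633, plus strand: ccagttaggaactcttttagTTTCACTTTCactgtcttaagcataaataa
Gbp3, chr3:142559985-142560034, plus strand: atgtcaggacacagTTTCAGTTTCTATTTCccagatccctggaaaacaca
Gbp5, chr3:142496749-142496798, plus strand: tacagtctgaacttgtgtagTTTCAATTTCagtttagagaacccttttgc
Gbp7, chr3:142530263-142530312, plus strand: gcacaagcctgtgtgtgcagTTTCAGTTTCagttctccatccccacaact

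The IRG genes Irgm1, Irgm2, Igtp and Tgtp2 lie on chromosome 11, and the 4 GBP genes lie in the order Gbp5, Gbp7, Gbp3, Gbp2 on chromosome 3. In Irgm1 and Gbp3 the capitals cover 2 overlapping matches. The core stood in its forward form in the 4 IRG promoters and as its reverse complement in the 4 GBP promoters. It lay 15 to 24 bases upstream of the start in Irgm1 and 156 to 165 bases upstream in Gbp5, the nearest and the farthest of the stretches shown. Among all 32851 RefSeq promoters in the table, 2.98% held the core in the same 250 bases, and among the promoters of the tested genes 2.64% did. The GAS core TTCNNNGAA, searched the same way, was in the promoters of 5 of the 8 genes (Irgm2, Igtp, Gbp5, Gbp7 and Tgtp2) and in 7.02% of all promoters. In Irgm2 and Tgtp2 it reads TTCCAGGAA and in Igtp TTCTAGGAA, and it stands in lower case just before the ISRE core in the lines above. These 5 genes held both cores, against 0.332% of all promoters. The promoters of Irgm2 and Igtp shared an identical run of 55 bases, and the next longest run between any 2 of the 8 genes was 17 bases, in Irgm2 and Tgtp2. Gbp3 had 2 promoters in the table, of which 1 held the ISRE core. Of 8 other IRG and GBP genes with a promoter in the table, 3 held the ISRE core and 2 the GAS core. Ifi47 and Irgq, whose values are given below, were among those with neither. A match describes the letters of the promoter and does not show that a factor was bound.

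The summed value of the 9 genes ranged widely between libraries. It was 3808, 7045 and 3800 normalised counts in NIL A, B and C, and 12262, 23699 and 22866 in SDD A, B and C. It was 3594 and 1376 in SDDIR A and B, and 407, 581 and 726 in RISDD A, B and C. Every SDD library was above every NIL library, every RISDD library was below all others, and SDDIR lay between RISDD and NIL. The members were chosen with results of these data known, so their levels and changes are descriptions, with no test of the members themselves. In bulk RNA, fewer cells that express a gene and less of its RNA per cell cannot be told apart.

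**Figure D1:**
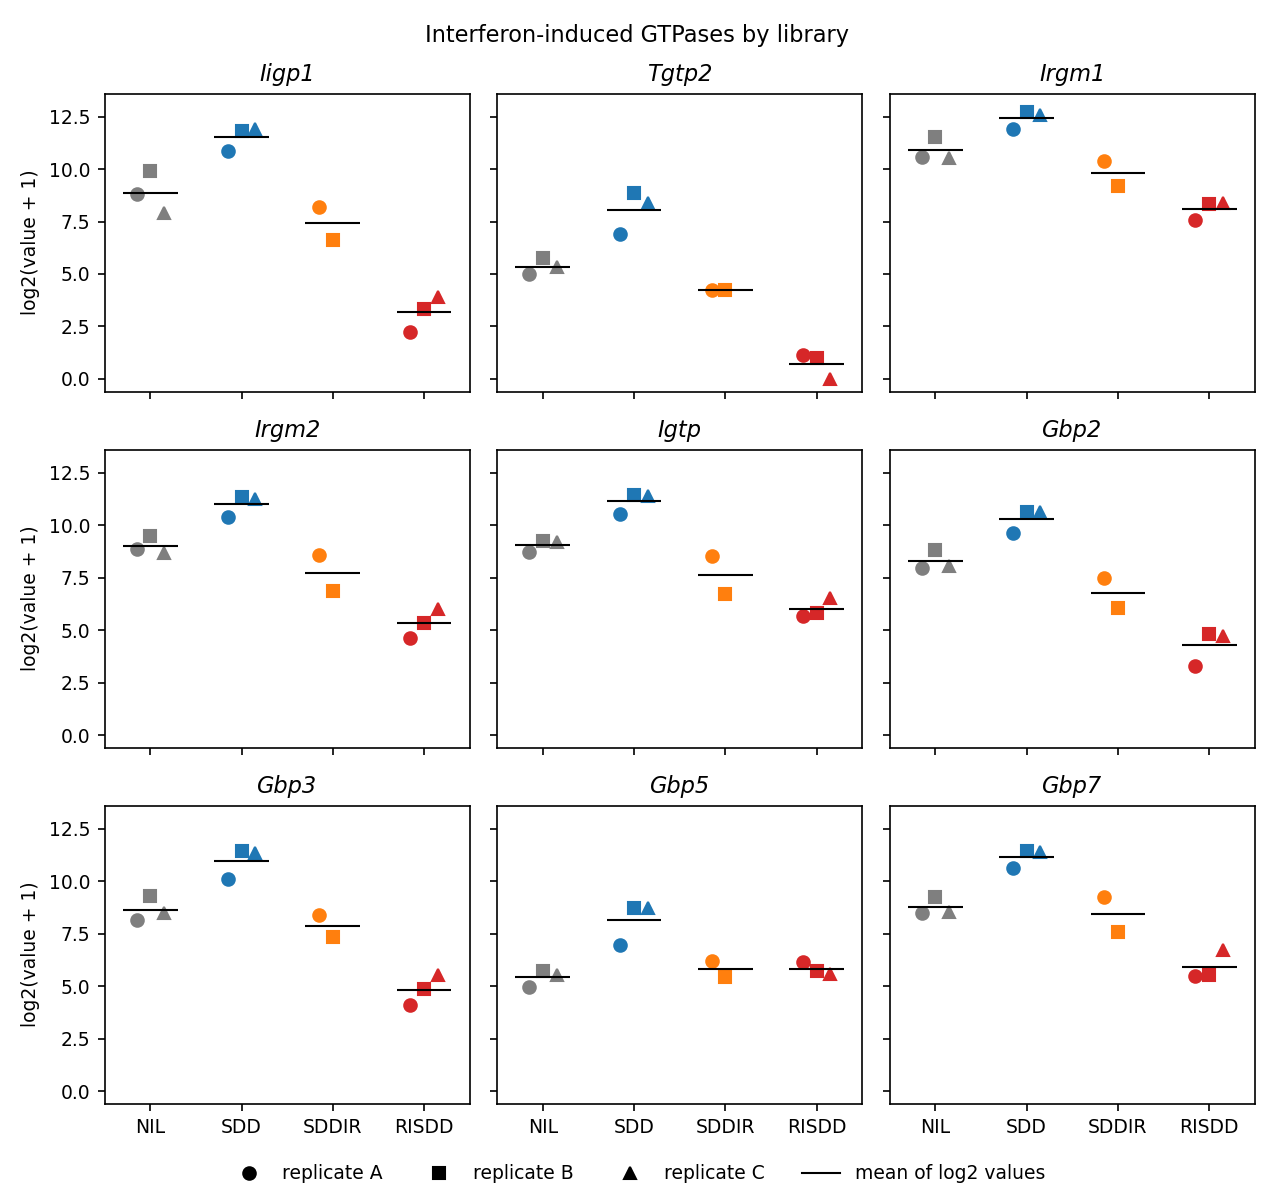
Values of the 9 GTPase genes in each library. The vertical axis is log2(normalised count + 1), symbols mark the replicate letters and bars the mean of the log2 values in each group; SDD is highest for all 9 genes, and Gbp5 is the gene whose RISDD libraries, at 46.6 to 69.3 normalised counts, lie with NIL and SDDIR.

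Irgm1, Irgm2 and Igtp (also called Irgm3) belong to the regulatory branch of the IRG family, which sits on host membranes and holds the effector GTPases inactive there. Irgm1 was at 1530, 2963 and 1494 normalised counts in NIL A, B and C, at 3879, 6807 and 6119 in SDD A, B and C, at 1349 and 580 in SDDIR A and B, and at 190, 324 and 337 in RISDD A, B and C. No 2 groups overlapped, and RISDD, at a mean of 284 ± 81.2 (SD, n = 3), was the highest RISDD mean of the 9 genes.

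Irgm2 was at 457, 713 and 411 in NIL, at 1344, 2616 and 2460 in SDD, at 377 and 114 in SDDIR, and at 23.5, 39.4 and 63.2 in RISDD, in the same library order. Igtp was at 415, 604 and 589 in NIL, at 1476, 2813 and 2715 in SDD, at 374 and 104 in SDDIR, and at 50.7, 55.6 and 91.7 in RISDD. For both genes the 4 groups stood in the order RISDD, SDDIR, NIL, SDD with no overlap between neighbours, although SDDIR A came close to the lowest NIL library and SDDIR B close to the highest RISDD library. Of the 31-base words in Igtp transcripts, 15.9% also occur in Irgm2, so some reads of these 2 genes could have been assigned to either.

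Iigp1 (Irga6) and Tgtp2 (Irgb6) are effector IRGs, which load onto the vacuole membrane of the parasite. Iigp1 had the widest range of the 9 genes after Tgtp2 was set aside for its low counts. It was at 451, 969 and 236 normalised counts in NIL A, B and C, at 1858, 3547 and 3900 in SDD A, B and C, at 296 and 96 in SDDIR A and B, and at 3.71, 9.1 and 14.2 in RISDD A, B and C. The RISDD values stand for 3, 9 and 18 reads. SDDIR A lay above NIL C, so those groups overlapped, and no other pair of groups did.

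Tgtp2 was lower throughout, at 30.9, 52.4 and 38.8 in NIL, 118, 456 and 329 in SDD, 17.8 and 17.8 in SDDIR, and 1.24, 1.01 and 0 in RISDD. The 3 RISDD libraries held 2 reads of it in all. The SDD level was 480 times the RISDD level by reads, with an exact 95% interval for counting error only of 133 to 3967, from 1112 reads against 2. NIL stood at 60.6 times RISDD (16.4 to 506) and SDDIR at 27.2 times (7.01 to 233) on the same measure. Tgtp2 shares 93.3% of its 31-base words with its near-identical neighbour Tgtp1, so the split between the 2 rows is uncertain. Their sum was 70, 149 and 42.7 in NIL, 213, 895 and 526 in SDD, 48.3 and 29.6 in SDDIR, and 3.71, 1.01 and 2.37 in RISDD. SDD stayed above and RISDD below all other libraries in the sum, while SDDIR A then lay above NIL C.

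The guanylate-binding proteins are larger GTPases that attach to vacuoles and to bacteria in the cytosol. Gbp2 was at 251, 447 and 264 in NIL, at 779, 1569 and 1579 in SDD, at 180 and 66.4 in SDDIR, and at 8.66, 27.3 and 25.3 in RISDD. Gbp3 was at 282, 628 and 355 in NIL, at 1111, 2737 and 2635 in SDD, at 329 and 162 in SDDIR, and at 16.1, 28.3 and 45.1 in RISDD. Both were highest in SDD and lowest in RISDD without overlap, and SDDIR overlapped NIL for Gbp3 but not for Gbp2.

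Gbp7, known to act with the phagocyte oxidase, was at 361, 616 and 367 in NIL, at 1573, 2736 and 2711 in SDD, at 598 and 193 in SDDIR, and at 43.3, 45.5 and 103 in RISDD. SDDIR A was at the upper end of the NIL range and SDDIR B below it. Gbp7 shares 14.7% of its 31-base words with other genes, chiefly the gene model Gm43802.

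Gbp5, known for promoting assembly of the NLRP3 inflammasome, had another order. It was at 30.1, 52.4 and 45.6 in NIL A, B and C, at 124, 418 and 417 in SDD A, B and C, at 72.8 and 42.7 in SDDIR A and B, and at 69.3, 51.6 and 46.6 in RISDD A, B and C. SDD was above all other libraries, and NIL, SDDIR and RISDD overlapped. The means were 42.7 ± 11.4 (SD, n = 3) in NIL, 57.8 ± 21.3 (SD, n = 2) in SDDIR and 55.8 ± 11.9 (SD, n = 3) in RISDD. For the other 8 genes the order of the group means was RISDD, SDDIR, NIL, SDD from low to high, and for Gbp5 it was NIL, RISDD, SDDIR, SDD. Gbp5 shares 0.671% of its 31-base words with other genes, the smallest share of the 9.

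Levels of different genes were compared per kilobase of their longest protein-coding transcript. In SDD, Irgm1 had the highest mean, 2480 normalised counts per kilobase, followed by Igtp at 1155, Iigp1 at 994, Gbp3 at 806, Irgm2 at 607, Gbp2 at 520 and Gbp7 at 417. Tgtp2 at 107 and Gbp5 at 105 were the lowest, and they were also the lowest in NIL, at 14.5 and 14 per kilobase. In RISDD, Irgm1 was again highest at 126 per kilobase, with Igtp next at 32.6, while Gbp5 took the third place at 18.3, and Iigp1 at 2.89 stood above only Tgtp2 at 0.267. The spread between SDD libraries was wide enough that neighbours such as Igtp and Iigp1 cannot be ordered with confidence.

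**Figure D2:**
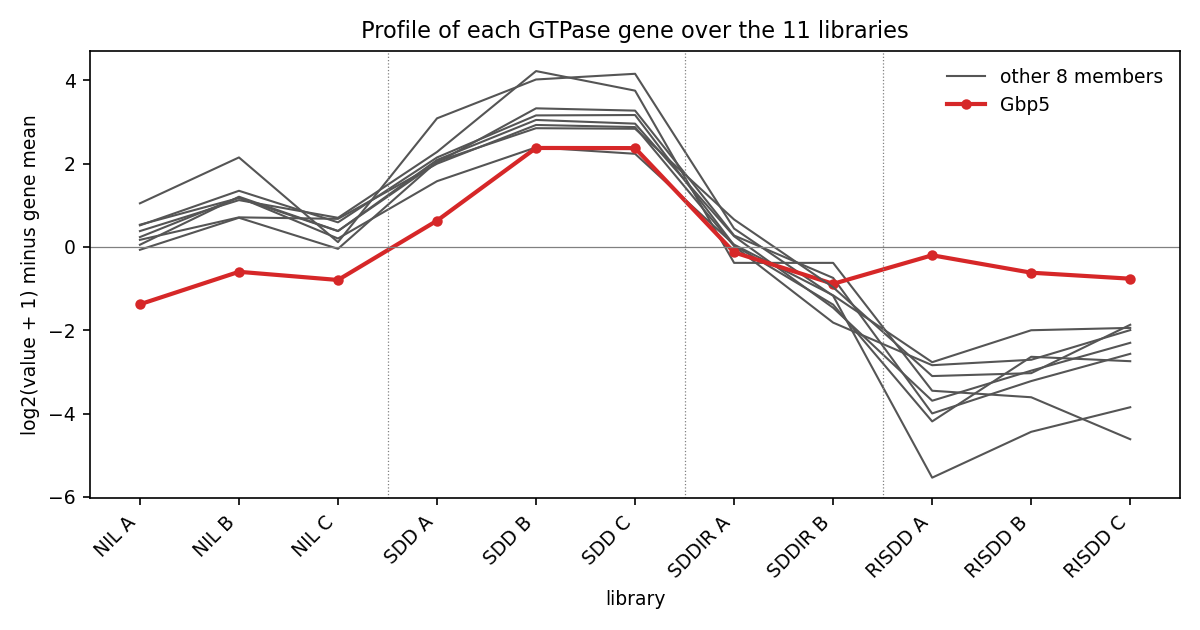
Profile of each GTPase gene over the 11 libraries. The vertical axis is log2(normalised count + 1) minus the gene's own mean, the horizontal axis lists the libraries and the lines only join values of 1 gene; Gbp5 (red) is lowest in NIL A, and its RISDD values lie below its mean beside those of NIL and SDDIR, whereas the other 8 genes are lowest in RISDD.

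Libraries of 1 group ranked alike for most of the genes. NIL B was the highest NIL library for 9 of 9 genes, SDD A the lowest SDD library for 9 of 9, and RISDD A the lowest RISDD library for 7 of 9. SDDIR A was above SDDIR B for 9 of 9, although for Tgtp2 the 2 values were equal to 3 digits. Over the 11 libraries, Pearson's r of log2(value + 1) was 0.947 to 0.996 for the 28 pairs without Gbp5 and 0.606 to 0.713 for the 8 pairs with it. After each group's mean was removed, r was 0.107 to 0.960 and 0.384 to 0.861. The low end of the first range came from Tgtp2, at 0.107 to 0.336 with the members other than Gbp5. Without Tgtp2 and Gbp5 the lowest r was 0.711. The highest r with Gbp5, 0.861, was that of Tgtp2. These r values are descriptions over 11 libraries that share groups and scaling.

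Myeloid cells respond strongly to interferon, so the 12 macrophage and other myeloid markers are set beside these values. They summed to 3749, 14485 and 5841 in NIL A, B and C, to 699, 1711 and 1332 in SDD A, B and C, to 416 and 963 in SDDIR A and B, and to 809, 1490 and 1149 in RISDD A, B and C. NIL B, highest in NIL for all 9 GTPases, was also highest for this sum, and SDD A and RISDD A were lowest for it within their groups. In SDDIR the order was opposite, with the higher myeloid sum in SDDIR B. Between groups, NIL had the highest myeloid sum while SDD had the highest GTPase values, and 4 of the 11 tested markers fell in SDD against NIL, among them Lyz2, a macrophage lysozyme, and Cx3cr1, a chemokine receptor. Cx3cr1 was at 0 in both SDDIR libraries and Aif1 in all 3 RISDD libraries. The list did not move only 1 way. In SDDIR against SDD 1 marker rose and 1 fell, and in RISDD against SDD 1 rose and 2 fell. Against NIL, 10 fell and 0 rose in SDDIR, and 8 fell and 1 rose in RISDD. Summed markers were 0 to 80.4 for the 4 lymphoid genes in the table, and 50.5 to 601 for the 5 endothelial genes, both highest in RISDD. The part of these cells in the differences between groups was not tested.

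The first comparison, SDD against NIL, shows the GTPases in cells with p53DD, RepSox and SNAP sorting beside cells with NIL alone. All 9 were higher in SDD, from 2.88-fold for Irgm1 (log2 change 1.53, SE 0.38) to 6.56-fold for Gbp5 (log2 change 2.71, SE 0.46), on the scale of log2(value + 1). Tgtp2 was 6.42-fold and Iigp1 6.28-fold higher, Gbp7 5.22-fold, Gbp3 5.02-fold, Igtp 4.24-fold, and Irgm2 and Gbp2 4.01-fold. The median log2 change was 2.33 over the 9 genes and 0.05 over the 14207 genes tested. In a limma fit of all tested genes, 9 of 9 passed as higher at an adjusted p under 0.05, where 9.32% of all genes did, and nothing is read from this count because the members were chosen on these samples. The groups did not overlap for 9 of 9, against 19.0% of all genes with SDD above NIL. The count fell to 5 of 9 without SDD B and to 5 of 9 without SDD C, and all changes kept their direction.

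**Figure D3:**
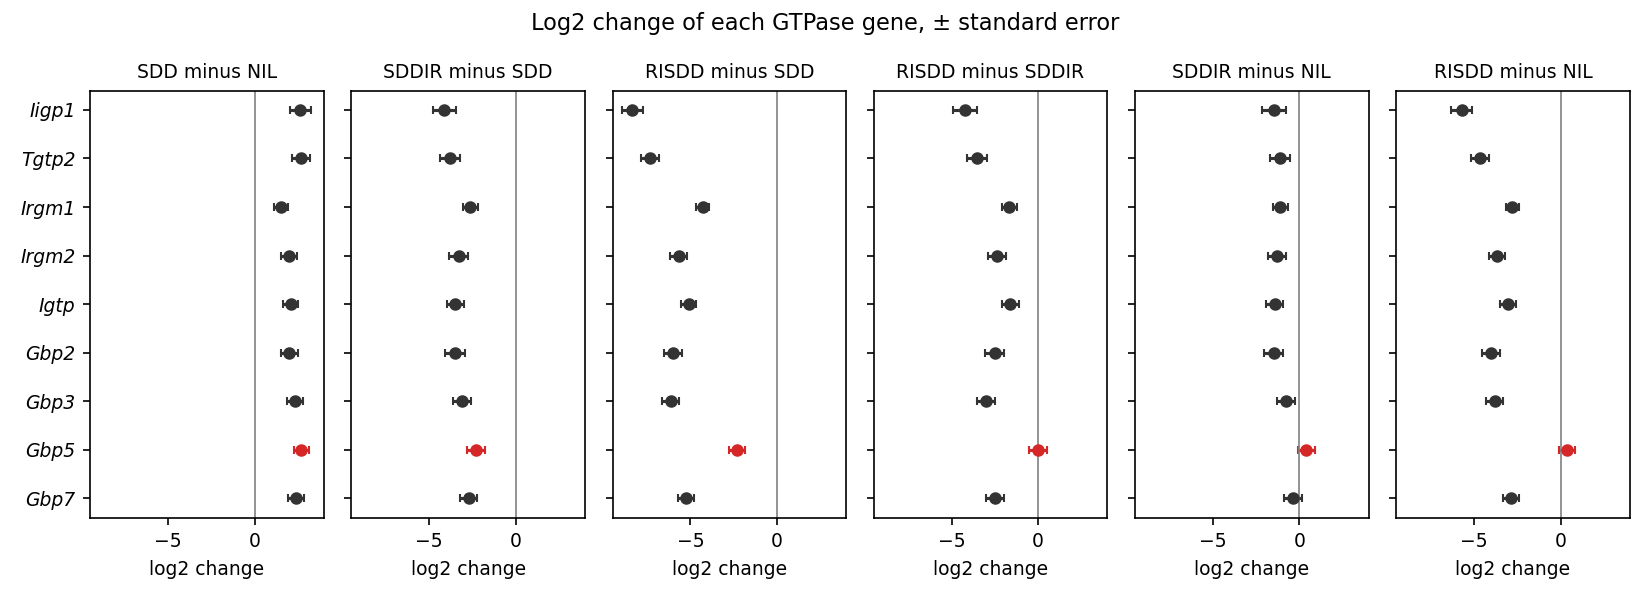
Log2 change of each GTPase gene in the 6 comparisons of the 4 groups. Points are differences of group means of log2(normalised count + 1), bars are 1 standard error from the limma fit and Gbp5 is red; the 9 changes are 1.53 to 2.71 in SDD against NIL and -8.36 to -2.32 in RISDD against SDD, and Gbp5 is near 0 in RISDD against SDDIR.

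The second comparison, SDDIR against SDD, adds HRAS G12V after the IRES to cells treated and sorted alike. The rows of the delivered factors were not equal between these groups. Isl1 stood at 74614 and 95718 in SDDIR A and B, and at 112760 to 141762 in SDD. Its log2 change was -0.63 (limma adjusted p = 0.0459). Neurog2 and Lhx3 fell without overlap, by log2 changes of -0.63 and -0.57 (limma adjusted p = 0.282 and 0.297). The part of these factors in the GTPase levels was not tested. All 9 GTPases were lower in SDDIR, from 4.93-fold for Gbp5 (log2 change -2.30, SE 0.51) to 17.4-fold for Iigp1 (log2 change -4.12, SE 0.68). Between them came Tgtp2 at 14-fold, Igtp and Gbp2 at 11.3-fold, Irgm2 at 9.86-fold, Gbp3 at 8.62-fold, Gbp7 at 6.65-fold and Irgm1 at 6.15-fold. The median log2 change was -3.30, against 0.01 over all tested genes. All 9 passed as lower and did not overlap, where 13.9% of all genes passed as lower and 32.3% did not overlap in that direction.

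RISDD against SDD places HRAS G12V before the IRES, and the SNAP tag used for sorting after it. All 9 GTPases were lower again, and the differences are set beside those of SDDIR against SDD, which shares the SDD libraries. Iigp1 was 329-fold lower (log2 change -8.36, SE 0.61), Gbp3 70.3-fold, Gbp2 64.6-fold, Irgm2 51.4-fold, Gbp7 38-fold, Igtp 34.7-fold and Irgm1 19.7-fold (log2 change -4.30, SE 0.38). Gbp5 was 4.99-fold lower (log2 change -2.32, SE 0.46), beside 4.93-fold in SDDIR. The fitted log2 change of Tgtp2, -7.31, depends on the pseudocount, and the ratio of reads given above describes it better. The median log2 change was -5.68, against 0.02 over all tested genes. All 9 passed as lower, where 22.6% of all genes did, and all 9 were apart, where 34.6% of all genes were.

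RISDD against SDDIR compares the 2 orders of the same parts. The SNAP tag used for sorting stands before the IRES in SDDIR and after it in RISDD. The order of the parts and what the gate kept therefore cannot be told apart. The Trp53 row was at 43128 to 46185 in RISDD and 29277 to 37068 in SDDIR (log2 change 0.44, limma adjusted p = 0.117). Iigp1 was 18.9-fold lower in RISDD (log2 change -4.24, SE 0.68), Gbp3 8.16-fold, Gbp2 5.72-fold, Gbp7 5.71-fold, Irgm2 5.22-fold, Irgm1 3.21-fold and Igtp 3.07-fold. Gbp5 did not differ beyond its spread, with a log2 change of -0.02 (SE 0.51). In the limma fit 7 of 9 passed as lower, Igtp and Gbp5 being the exceptions, where 5.05% of all genes passed. Apart from Gbp5, 8 of 9 did not overlap, where 29.0% of all genes were apart in that direction. Without SDDIR A, the library with the higher GTPase values, 0 of 9 passed in limma (6 of 9 at an unadjusted p under 0.05), and without SDDIR B 8 of 9 passed. These 2 fits leave 1 SDDIR library, which is assumed to vary like the libraries of the other groups. Without SDDIR A the log2 changes of Iigp1, Tgtp2 and Gbp3 were -3.43, -3.51 and -2.52. The count was 3 without RISDD A and 4 without RISDD B, and edgeR and DESeq2 on the recovered reads of all libraries each called 8.

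Against NIL, the SDDIR values were lower for 8 of 9 genes by a log2 change of -0.35 (Gbp7) to -1.49 (Gbp2), and higher for Gbp5 by 0.41 (SE 0.51). SDDIR lay below NIL without overlap for 5 genes, Irgm1, Irgm2, Igtp, Gbp2 and Tgtp2, where 27.5% of all genes did. Only Igtp passed in the limma fit, at a log2 change of -1.41 (SE 0.49), where 18.2% of all genes passed as lower. DESeq2 called 4 of 9 and edgeR 0, with 4 of 9 at an unadjusted p under 0.05 in edgeR, and without SDDIR A, which leaves 1 SDDIR library, limma called 4.

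RISDD was lower than NIL for 8 of 9 genes, by 52.3-fold for Iigp1 (log2 change -5.71, SE 0.61), 16.1-fold for Gbp2, 14-fold for Gbp3, 12.8-fold for Irgm2, 8.18-fold for Igtp, 7.28-fold for Gbp7 and 6.86-fold for Irgm1. These 8 passed, where 23.5% of all genes passed as lower, and did not overlap, where 27.5% of all genes did not. Gbp5 overlapped NIL and was higher by a log2 change of 0.39 (SE 0.46), which did not pass. The comparisons with NIL share the NIL libraries and carry the difference in drug and sorting given above.

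The genes whose profile over the 11 libraries was closest to the mean profile of the GTPases, among 11669 other tested genes with a mean of at least 50, included Trim21 (Pearson's r 0.995), Ifit1 (0.995), Cxcl10 (0.995), Parp14 (0.994), Stat2 (0.994), Cmpk2 (0.993) and Usp18 (0.992). Ifit1, which binds viral RNA, had means of 1848, 10485, 775 and 68.2 in NIL, SDD, SDDIR and RISDD, and Trim21, an intracellular antibody receptor, had 282, 728, 174 and 66.8. The r values describe 11 libraries that share groups, and say nothing of shared control.

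The other genes of the 2 GTPase families gave a list of 28 symbols, of which 20 were in the table and 15 were tested. In SDD against NIL 5 rose and 1 fell, in SDDIR against SDD 12 fell, and in RISDD against SDD 13 fell. Gbp6 was at 165, 194 and 67 in NIL, 953, 1251 and 1478 in SDD, 171 and 46.2 in SDDIR, and 6.18, 9.1 and 8.69 in RISDD. It rose 9.29-fold in SDD against NIL (limma adjusted p = 0.0025) and was 136-fold lower in RISDD than in SDD (limma adjusted p = 2.15e-06). Ifi47 (Irgd) rose 6.67-fold in SDD against NIL (limma adjusted p = 0.0287) and averaged 1.95 in RISDD against 583 in SDD. Gm4841 also rose in SDD, from 23.3 to 126. Irgq, a family member that is not known to depend on interferon, was at 1067, 812, 760 and 853 in NIL, SDD, SDDIR and RISDD, and was the gene that fell in SDD against NIL (log2 change -0.39, limma adjusted p = 0.0365). Without SDD B or without SDD C, 1 of the 15 passed in SDD against NIL, and without SDDIR B 1 passed in SDDIR against SDD.

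The ligands were barely detected, and none of the 5 interferon genes in the table passed the filter. Ifnb1, which encodes interferon beta, had 2, 12 and 26 reads in SDD A, B and C, 0, 1 and 0 in NIL, 1 and 1 in SDDIR, and 0 in each RISDD library. SDD A, lowest in SDD for all 9 GTPases, was also lowest in that group for Ifnb1. Ifnb1 was at 2.26, 11.6 and 16 normalised counts in SDD A, B and C, and the first value rests on 2 reads. Ifna4 had 7 reads over SDD, 1 over SDDIR and 0 elsewhere, and Ifnk and Ifne were read only in RISDD, at 12 and 5 reads. Interferon protein was not measured, and its part in the GTPase levels was not tested.

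The interferon receptors and their kinases moved little beside the GTPases. Of the 8 tested, 0 passed in SDD against NIL in limma (2 at an unadjusted p under 0.05, 0 in edgeR and 1 in DESeq2), 3 fell in SDDIR against SDD, and 3 fell in RISDD against SDD. Ifngr1, a chain of the interferon gamma receptor, averaged 999, 914, 511 and 560 in NIL, SDD, SDDIR and RISDD (SDDIR against SDD log2 change -0.82, limma adjusted p = 0.0157), and Ifnar1, of the type I receptor, 2180, 2353, 1882 and 2868. The count of 3 in SDDIR against SDD was 6 without NIL C, 1 without SDDIR A, and 0 in limma without SDD B, SDD C or SDDIR B (4, 4 and 2 at an unadjusted p under 0.05). The count of 3 in RISDD against SDD was 1 without SDD C and 7 without NIL C.

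Of 11 tested STAT and IRF factors and coactivators, 6 rose in SDD against NIL, 8 fell in SDDIR against SDD and 7 fell in RISDD against SDD. Stat2 averaged 549, 1591, 409 and 158, Irf9 1095, 2025, 682 and 380, Irf1 570, 1425, 473 and 189, and Irf7 869, 2538, 433 and 102 in NIL, SDD, SDDIR and RISDD. All 4 rose in SDD against NIL (limma adjusted p = 0.00852, 0.0333, 0.0305 and 0.0407 in that order) and fell in SDDIR and in RISDD against SDD. Their log2 changes in RISDD against SDD were -3.32, -2.45, -2.82 and -4.71. Those of the GTPases were -2.32 for Gbp5 and -8.36 to -4.30 for the other 8. Stat2, Irf9 and Irf1 thus fell less than each of those 8 GTPases. Among 9 inhibitors of interferon signalling, 1 rose in SDD, Usp18, which blocks the type I receptor and averaged 1234, 4090, 815 and 150. None of the 9 passed in limma without NIL A, SDD B or SDD C (3, 2 and 2 at an unadjusted p under 0.05), and 3 passed without NIL C.

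**Figure D4:**
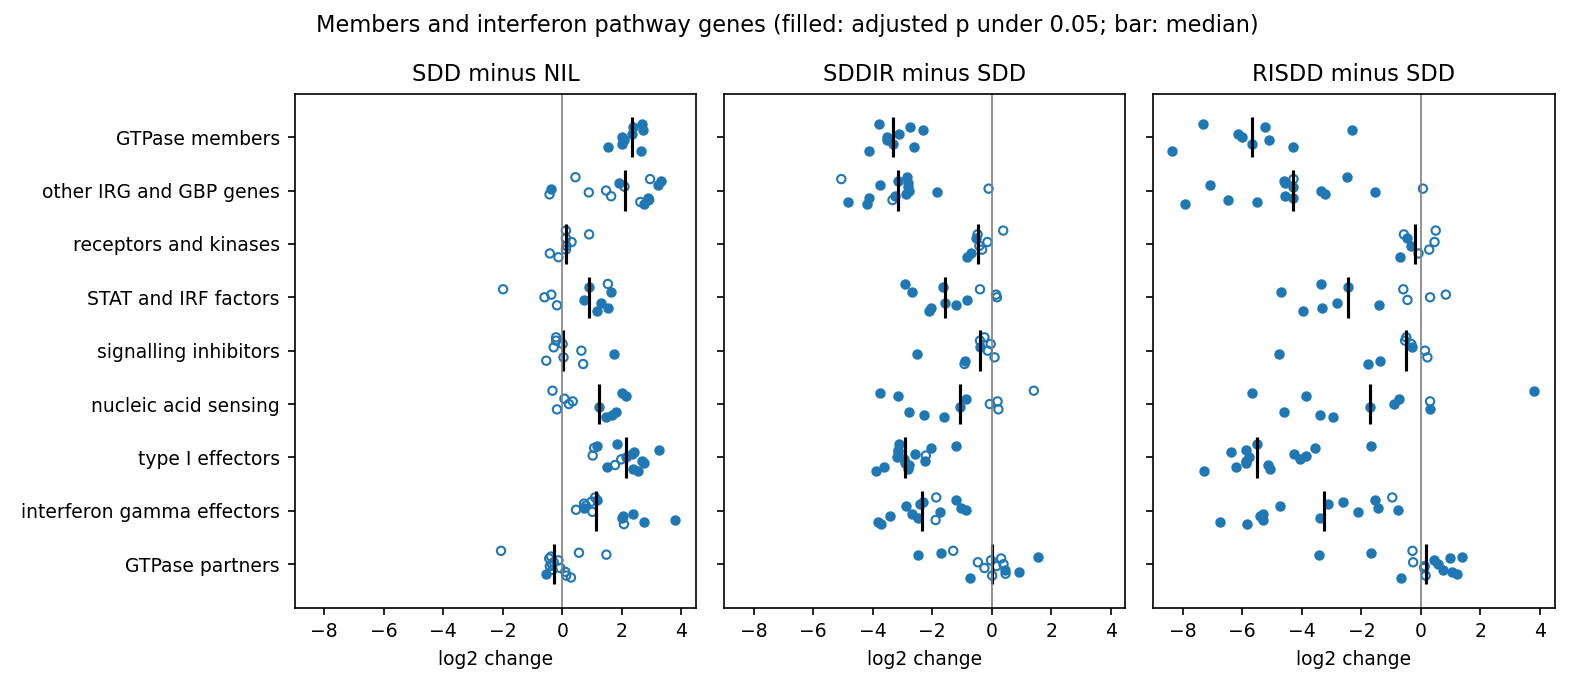
Log2 changes of the 9 GTPases and of the tested genes of 8 pathway lists in 3 comparisons. Each point is a gene, filled where its limma adjusted p was under 0.05, and the bar is the list's median; the medians of the GTPases are 2.33, -3.30 and -5.68, and those of the receptors and kinases 0.12, -0.44 and -0.21.

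The tested effectors of interferon had their highest group mean in SDD. Of 15 type I effectors, 11 rose in SDD against NIL, 14 fell in SDDIR against SDD and 15 fell in RISDD against SDD, with median log2 changes of 2.13, -2.92 and -5.52. Rsad2 (viperin), which restricts viruses, averaged 766, 6561, 878 and 115 in NIL, SDD, SDDIR and RISDD. Its SDDIR values, 1394 and 363, overlapped its NIL values, 538, 1376 and 383 (SDDIR against NIL log2 change 0.11, SE 0.68). Of 14 genes tied to interferon gamma and antigen presentation, 7 rose, 12 fell and 13 fell, with medians of 1.12, -2.35 and -3.25, and Cxcl10, a T-cell chemokine, averaged 1048, 7434, 495 and 57.3. Of 11 nucleic acid sensors and their adaptors, 6 rose in SDD against NIL, 7 fell in SDDIR against SDD, and 8 fell and 2 rose in RISDD against SDD. Zbp1, a sensor of Z-form nucleic acid, averaged 176, 712, 54.9 and 12.8. In SDD against NIL the count was 6 of the type I effectors without NIL A, SDD B or SDD C, 2 of the gamma list and 3 of the sensors without SDD C, and 1 of the STAT and IRF list without NIL A, SDD B or SDD C. Without SDDIR B, the genes that passed in SDDIR against SDD numbered 3 type I effectors, 8 of the gamma list, 3 sensors and 4 of the STAT and IRF list.

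The partners of the GTPases in vacuole targeting and inflammasomes did not share this order as a list. Of 15 tested, 1 fell in SDD against NIL, 3 rose and 3 fell in SDDIR against SDD, and 7 rose and 3 fell in RISDD against SDD. The 6 that passed in SDDIR against SDD were 2 without SDDIR B, 3 without SDDIR A, SDD B or SDD C, 4 without SDD A and 9 without NIL C. The number in SDD against NIL ranged from 0 to 4 with 1 library left out (4 to 9 at an unadjusted p under 0.05), the highest without NIL C. genes Atg7 and Atg12, needed to place GTPases on vacuoles, averaged 328 and 467 in SDD and 758 and 975 in RISDD, where both rose (limma adjusted p = 0.00012 and 0.0038). Casp4, the inflammatory caspase that acts downstream of GBPs, and Gsdmd, the pore protein it cleaves, fell from 203 to 19.2 and from 526 to 162 (limma adjusted p = 0.000693 and 0.000342). Over all 8 lists, 98 genes were tested, of which 36 rose and 2 fell in SDD against NIL, where 17.6% of all genes changed in either direction. In SDDIR against SDD 3 rose and 62 fell (22.5% of all genes changed), in RISDD against SDD 9 rose and 66 fell (42.6%), and in RISDD against SDDIR 3 rose and 22 fell (9.69%). The first of these totals, 38, was 13 without SDD C, 16 without SDD B, 22 without NIL A and 19 in a fit of only the 2 groups. The total of 65 in SDDIR against SDD was 22 without SDDIR B, 42 without SDD C and 43 without SDD B, and the total of 25 in RISDD against SDDIR was 2 without SDDIR A, 8 without RISDD A, 9 without RISDD B, 16 without RISDD C and 41 without NIL C.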

How the data were processed

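The submitters' processing notes name Trim Galore 0.6.10, Salmon 1.10.3 and the GRCm39 build. Which tool summed and scaled the counts was not given in the sources used here. Deposited values are signal, namely gene counts divided by 1 constant per library. In all 11 libraries all values were whole multiples of the smallest one above 0 (tolerance 0.001, 100% of values), so reads could be recovered. Of the 12 columns, 1 repeated SDDIR B in all 23077 rows and was not used. The plan had counted 12 libraries. The labels call replicates A to C biological and say nothing of separate cultures, so a p-value here covers only the spread between samples, which may be technical.

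The 14207 genes that reached 10 in 3 or more libraries were fitted on log2(value + 1) in limma 3.58.1 (R 4.3.3), with trend and robust moderation, all 4 groups together and Benjamini-Hochberg adjustment. An adjusted p under 0.05 was a call. The fit was checked on simulated data, in which the spread of a gene was equal in all groups. Only genes with a mean of at least 100 were changed, and only in the group named first. Fewer genes changed than in the real data, and the rates below do not cover genes with lower means. Of 100 genes changed 2-fold the fit called 70 in SDD against NIL, 68 in RISDD against SDD, 50 in SDDIR against SDD, 48 in RISDD against NIL, 46 in RISDD against SDDIR and 42 in SDDIR against NIL. It called 82 to 92 of 100 changed 4-fold over the 6 comparisons (14100 to 14118 genes simulated), and 3 to 13 calls per comparison were false, of 127 to 168. Alternatives were other scalings, pseudocounts and filters, a fit of only 2 groups, a replicate block, DESeq2 1.42.0 on recovered reads, each library left out, and, added after seeing the data, edgeR 4.0.16 on recovered reads. The members and lists were chosen with earlier results of these data known. From each list the rule named up to 3 genes per comparison that passed with a group mean of 100 or more, in order of absolute log2 change, and always Stat2, Irf1, Irf9 and Irf7. A few results under this rule are not reported here. The ligands were not tested and are named after their reads were seen. Transcript lengths and shared 31-base words came from GENCODE M21, which is of another assembly than the table, and promoters from RefSeq. Intervals on reads cover counting error only.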

Additional observations from a re-analysis of the deposited data

How the results depend on the processing

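Of 1134 recomputed log2 changes of the 9 GTPases (21 alternatives, 6 comparisons), 1071 kept their direction and their side of the threshold, 47 lost the call, 11 gained it and 5 changed sign. The 5 were Gbp5 in RISDD against SDDIR, at 0.03 with quantile scaling, 0.03 without RISDD B, 0.10 without RISDD C and 0.36 without SDDIR A (range -0.40 to 0.36 with 1 library left out), and Gbp7 in SDDIR against NIL, at 0.46 without SDDIR B (range -1.16 to 0.46). None of these had passed. The cause was not tested. In SDDIR against NIL, 1 GTPase passed as reported, 2 with a pseudocount of 10, 4 with DESeq2, and 0 with no filter (5 at an unadjusted p under 0.05), with only the 2 groups (3), with the replicate block (3) and with edgeR (4). With 1 library left out, the number of GTPases that passed ranged from 5 to 9 in SDD against NIL, 8 to 9 in SDDIR against SDD, 0 to 8 in RISDD against SDDIR and 0 to 4 in SDDIR against NIL, and was 9 in RISDD against SDD and 8 in RISDD against NIL throughout. For the 98 pathway genes these ranges were 13 to 49, 22 to 76, 2 to 41 and 9 to 32 in the first 4, 66 to 84 in RISDD against SDD and 48 to 80 in RISDD against NIL. With only the 2 groups compared, 19, 40 and 6 pathway genes passed in SDD against NIL, RISDD against SDDIR and SDDIR against NIL, in place of 38, 25 and 19. Replicate letters were shared by 15 pairs of libraries between groups, whose deviations from the group means correlated at 0 to 0.271, over 0.1 for 9 pairs. Pairs with different letters correlated at -0.198 to 0.137, and 9 of 11 libraries correlated best with their own letter. The main fit did not use the letters, and what libraries of 1 letter share was not tested. With the replicate block, 9 GTPases passed in SDD against NIL and in both comparisons with SDD, 6 in RISDD against SDDIR, 0 in SDDIR against NIL and 8 in RISDD against NIL. Tgtp2 in RISDD, at 2 reads, is limited by depth.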

Other observations

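Values of 3 further pathway genes are given. Aim2, a sensor of cytosolic DNA whose inflammasome is aided by GBPs in some infections, had means of 13.8, 5.48, 15.8 and 85.4 in NIL, SDD, SDDIR and RISDD, and rose in RISDD against SDD (log2 change 3.80, limma adjusted p = 0.0104). It was chosen after its values were seen, as the gene of the sensing list with the largest rise in that comparison. Stat3, which carries signals of other cytokines, was at 4729, 4150, 1832 and 1558 in NIL, SDD, SDDIR and RISDD. It was not higher in SDD than in NIL (log2 change -0.18, limma adjusted p = 0.28), and it was the gene of the STAT and IRF list that fell in SDDIR against NIL (log2 change -1.36, limma adjusted p = 5.25e-05). Tap1, a peptide transporter for antigen presentation, averaged 1158, 2023, 303 and 75, and fell in SDDIR against NIL (log2 change -2.09, limma adjusted p = 0.00438), a comparison in which 1 of the 9 GTPases passed.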
